A study of Mus musculus with 12 samples.

Results

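The 81 genes described here encode the heat shock chaperones of the cytosol and mitochondria, their J-domain partners and the heat shock factors. They were the rows of the deposited gene table whose symbol began with Hspa, Hspb, Hspd, Hspe, Hsph, Hsp90, Dnaja, Dnajb, Dnajc or Cct2 to Cct8, or was Tcp1 or Hsf with a number. The chaperones of the endoplasmic reticulum Hspa5, Hsp90b1, Dnajb9, Dnajb11 and Dnajc3 were left out, so that 81 of 16353 genes remained. The rule itself uses symbols and no measured value, but it was set with earlier results of these data known. Not all of them fit the name: by textbook location 45 act in the cytosol and 8 in mitochondria, 8 in the nucleus (the 5 heat shock factors among them), 4 in the endoplasmic reticulum and 16 elsewhere or at an unassigned site. Hspb11 and Hspbap1 carry an HSP name without being chaperones of these families.

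The RNA came from CD8 T cells of CBA/J mice with the transgenic KB5 T cell receptor, which recognises cells of C57BL/6 mice. The cells were sorted from the spleen on the KB5 receptor and CD8, to 95% purity per the labels, and each group had 3 libraries. Naive cells came from untreated mice, and activated cells from mice injected with 10 M (mega) C57BL/6 splenocytes. Tolerized cells came from mice that also received anti-CD154 (0.5 mg), which binds the CD40 ligand. Inflamed cells came from mice treated like the tolerized ones and with LPS, the bacterial lipopolysaccharide (100 µg), in addition. Spleens of treated mice were taken 12 h after treatment. All cells thus share the strain and the receptor, and the activated, tolerized and inflamed groups, called the exposed groups below, share the splenocytes. The labels do not say whether each library came from its own mouse, so the p-values below cover the spread among libraries, which may be technical.

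Chaperones hold unfinished or damaged proteins until they fold. HSP70 binds short water-repelling stretches of a protein, J proteins deliver clients to it and set off its ATPase, and exchange factors release the bound nucleotide so that the client can leave. HSP90 takes on partly folded kinases, receptors and transcription factors, while the ring-shaped chaperonins, CCT in the cytosol and HSP60 with its HSP10 lid in mitochondria, enclose a single protein as it folds. Heat shock factors are the transcription factors that switch on the inducible members after heat or other protein damage. A resting T cell makes little protein, and within a day of antigen contact it enlarges and raises its protein synthesis before it divides.

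Together the 81 genes took up 0.826% to 1.04% of the reads in the naive libraries and between 3.19% and 4.73% in the exposed ones. Levels are counts per M (mega) reads, abbreviated CPM and taken after scaling of the library sizes. Summed over the 81 genes, naive replicates 1 to 3 held 7074, 8037 and 8592 CPM. The activated libraries held 51610, 40680 and 31810 CPM. In tolerized cells the sums were 48820, 37900 and 33630 CPM, and in inflamed cells 44140, 35620 and 41370 CPM. Every exposed library lay far above the naive ones, and the exposed groups overlapped each other. In each exposed group replicate 1 had the highest sum. In bulk libraries fewer cells of a type and less RNA per cell cannot be told apart.

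**Figure D1:**
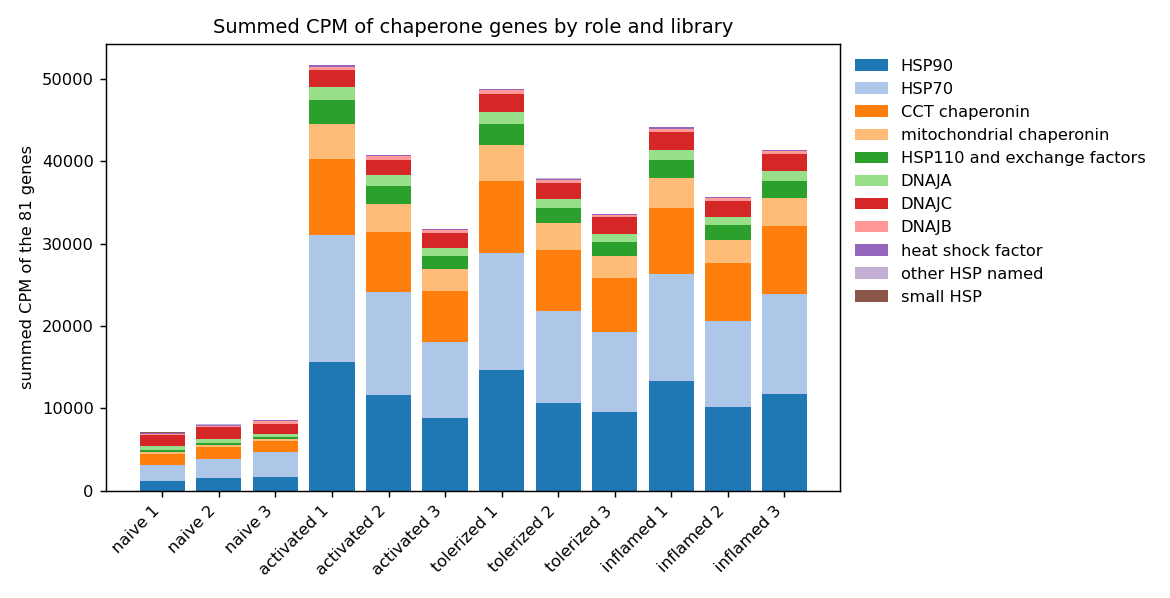
Summed CPM of the 81 chaperone genes in each of the 12 libraries (bars start at 0), with a colour for each role. The naive bars end between 7074 and 8592 CPM and the exposed bars between 31810 and 51610 CPM, and most of each exposed bar is HSP90, HSP70 and the CCT chaperonin.

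Of the 81 genes, 69 had enough reads to be tested, out of 12499 tested genes. The other 12 were Cct8l1, Dnajb8, Dnajc22, Dnajc28, Dnajc5b, Hsf3, Hsf5, Hspa12a, Hspb1, Hspb7, Hspb8 and Hspb9, so that most of the small heat shock proteins were at or near the limit of detection in these cells. Differences below are on the log2(CPM + 1) scale with the standard error (SE) of the limma fit. That scale understates the change of genes at a few CPM. A gene is said to have risen or fallen where its p-value, adjusted by the Benjamini-Hochberg method over all tested genes, was under 0.05.

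Against naive cells, 40 of the 69 rose and 13 fell in activated cells, while 35.3% of all tested genes rose and 35.3% fell. In tolerized cells 41 rose and 11 fell, beside 37.4% and 35.9% of all genes. In inflamed cells 40 rose and 13 fell, beside 36.9% and 35.5% of all genes. With library sizes left unscaled, the inflamed split became 37 higher and 21 lower. The median difference of the 69 genes was 0.77, 0.75 and 0.94 in the order activated, tolerized, inflamed, and that of all tested genes was -0.04, -0.01 and -0.01. A rise of at least 2-fold was found for 31 of the 69 in each of the comparisons, against 17% of all tested genes in activated, 19% in tolerized and 18.7% in inflamed cells. These 3 comparisons share the naive libraries. In all 3, 38 of the 69 genes rose and 11 fell, and 12 passed in none. The share of all tested genes that did so was not counted, so this overlap is not read as particular to these genes. Cct6b, Hspb2 and Hsf4, counted among the falls, had enough reads to be tested only because of their naive libraries, where they were high.

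Counted by role, both HSP90 genes, both genes of the mitochondrial chaperonin, all 4 genes of the HSP110 and exchange factor group and 8 of 9 tested CCT genes rose in each comparison with naive cells. Members that sit in mitochondria rose in 7 of 8 cases in activated, 8 of 8 in tolerized and 7 of 8 in inflamed cells. Members assigned to the cytosol rose in 25, 24 and 25 of 38 cases and fell in 6, 4 and 5. Of the 13 tested members elsewhere or at an unassigned site, 3 rose and 5 fell in each comparison. Of all tested genes, 35.3%, 37.4% and 36.9% rose and 35.3%, 35.9% and 35.5% fell. As many DNAJB genes rose as fell, while most DNAJC genes that passed rose, as described below.

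**Figure D2:**
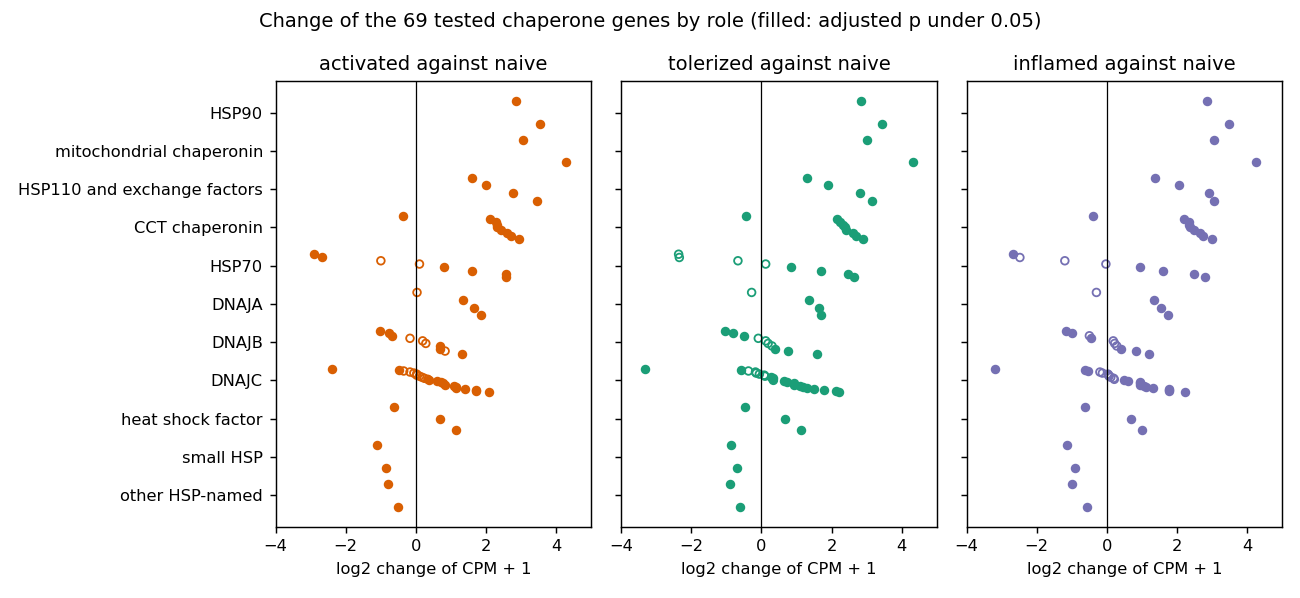
Difference from naive cells on the log2(CPM + 1) scale for each of the 69 tested genes, arranged by role, in 3 panels for activated, tolerized and inflamed cells. Filled circles passed an adjusted p of 0.05 and open circles did not. HSP90, the mitochondrial chaperonin, HSP110 and all CCT genes but Cct6b lie right of 0, while the DNAJB and DNAJC groups spread to both sides.

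The mitochondrial chaperonin held the largest rise of the 69 genes. Hspd1 encodes HSP60, the barrel of the mitochondrial folding chamber. It stood at 125, 144 and 145 CPM in the naive libraries. In activated libraries it reached 3470, 2660 and 2090 CPM, in tolerized 3590, 2640 and 2230, and in inflamed 2840, 2240 and 2790 CPM. The naive and exposed libraries did not overlap, and the exposed groups overlapped throughout. The difference from naive was 4.27 ± 0.21 (SE, n = 3 per group) in activated cells, a 19.3-fold rise (limma adjusted p = 1.14e-07), 4.32 in tolerized and 4.24 in inflamed cells. Hspe1, the HSP10 lid of the chamber, went from 71.3, 88.6 and 77.2 CPM in naive to 869, 675 and 489 CPM in activated libraries. Its tolerized libraries held 784, 602 and 543 CPM and its inflamed ones 775, 597 and 636 CPM. The lid thus rose in all exposed groups, by 3.05 ± 0.20 in activated cells (8.28-fold, limma adjusted p = 5.72e-07), less than the barrel.

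The ratio of Hspd1 to Hspe1, each taken per kilobase of exon, was 0.534 to 0.620 in the naive libraries. It was 1.30 to 1.41 in activated, 1.35 to 1.51 in tolerized and 1.21 to 1.45 in inflamed libraries. Barrel and lid therefore changed place in order, with the lid transcript more abundant before exposure and the barrel transcript after it. Among the 81 genes ranked by CPM per kilobase, Hspd1 was the 18th in naive cells, at 59.2 ± 4.86 (SD, n = 3), and the third in each exposed group, at 1170 ± 298, 1210 ± 301 and 1130 ± 142. Next to it in the exposed order was Hsp90aa1, at 1140 ± 327, 1050 ± 240 and 1060 ± 99.6 CPM per kilobase, which is within the spread of Hspd1.

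Hspd1 and Hspe1 are divergent neighbours on mouse chromosome 1 (chr1:55077833-55088243 and chr1:55088148-55091317, RefSeq, GRCm38) whose ends overlap. RefSeq gives Hspd1 more than 1 start, at 55088243 and, further inside, at 55087932, and Hspe1 starts at 55088148. The 30 bases shown lie between the inner Hspd1 start and the Hspe1 start, within the outer bounds of Hspd1. They carry the heat shock element, the site that heat shock factors bind, and are given for each gene on its own strand because the stretch falls in the promoter window of both. The search letters were GAANNTTCNNGAA and, on the other strand, TTCNNGAANNTTC. Capitals mark the match, in which 2 elements overlap.
Hspd1: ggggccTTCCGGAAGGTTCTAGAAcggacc
Hspe1: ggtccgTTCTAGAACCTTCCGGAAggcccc
The stretch is chr1:55088053-55088082 (GRCm38.p6, minus strand for Hspd1, plus for Hspe1). The match runs from position -144 to -127 of the inner Hspd1 start and from -89 to -72 of the Hspe1 start. The stretch overlaps a GENCODE exon of Hspd1. The exons of these genes also overlap on opposite strands, and whether the counting used the strand is not given in the sources used here, so a few reads may be shared between them. Genes such as Hspe1, Hspa8 and Hsp90ab1 also have processed pseudogenes, and how reads with several matches were counted is not given in those sources.

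In the RefSeq promoter table, which covers 250 bases before and 50 after each start, this 3-unit element was found in 0.603% of 32851 promoters. Of the 84 promoters of the chaperone genes 6 held it. Of the 81 genes, 65 were in that table, and 4 of them held the element, beside 0.547% of the 12978 genes of the deposited table with a promoter. The 4 were Hspd1 and Hspe1, which share 1 stretch, Hsph1 and Dnajb6. Their values stand apart from one another, since Hspd1, Hspe1 and Hsph1 are among the 5 largest rises in each exposed group, while Dnajb6 rose by less than 2-fold. The promoters of Hsp90aa1, Hsp90ab1, Hspa8, Hspa9 and Hsf1 were not analysed here. The E-box CACGTG, a palindrome bound by MYC and related factors and not overlapping the element's letters, was found in 8 of the 65 genes, beside 10.6% of the 12978 genes of the table with a promoter, and in 9 of their 84 promoters, beside 7.15% of all promoters. Hspd1, at its outer start, and Hsph1 were among them.

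HSP90 rose in both of its cytosolic forms. Hsp90aa1, the form known as stress-inducible, stood at 225, 246 and 356 CPM in naive libraries. Activated libraries held 4240, 3120 and 2390 CPM, tolerized 3780, 2670 and 2530, and inflamed 3190, 2680 and 3160 CPM. Hsp90ab1, the form known as constitutive, went from 974, 1280 and 1350 CPM to 11300, 8440 and 6430 CPM in activated libraries. The naive and exposed ranges of both were apart by several-fold, and for both the lowest naive library was replicate 1. Hsp90aa1 differed by 3.54 ± 0.24 in activated cells (11.7-fold, limma adjusted p = 5.91e-07) and Hsp90ab1 by 2.84 ± 0.25 (7.14-fold, limma adjusted p = 3.12e-06). In tolerized and inflamed cells the values were 3.44 and 3.47 for Hsp90aa1 and 2.83 and 2.86 for Hsp90ab1. Per kilobase, Hsp90aa1 made up 14.4% to 18.8% of the HSP90 transcripts in naive and 21.8% to 24.7% in exposed libraries, so the constitutive form remained the larger share in every library.

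**Figure D3:**
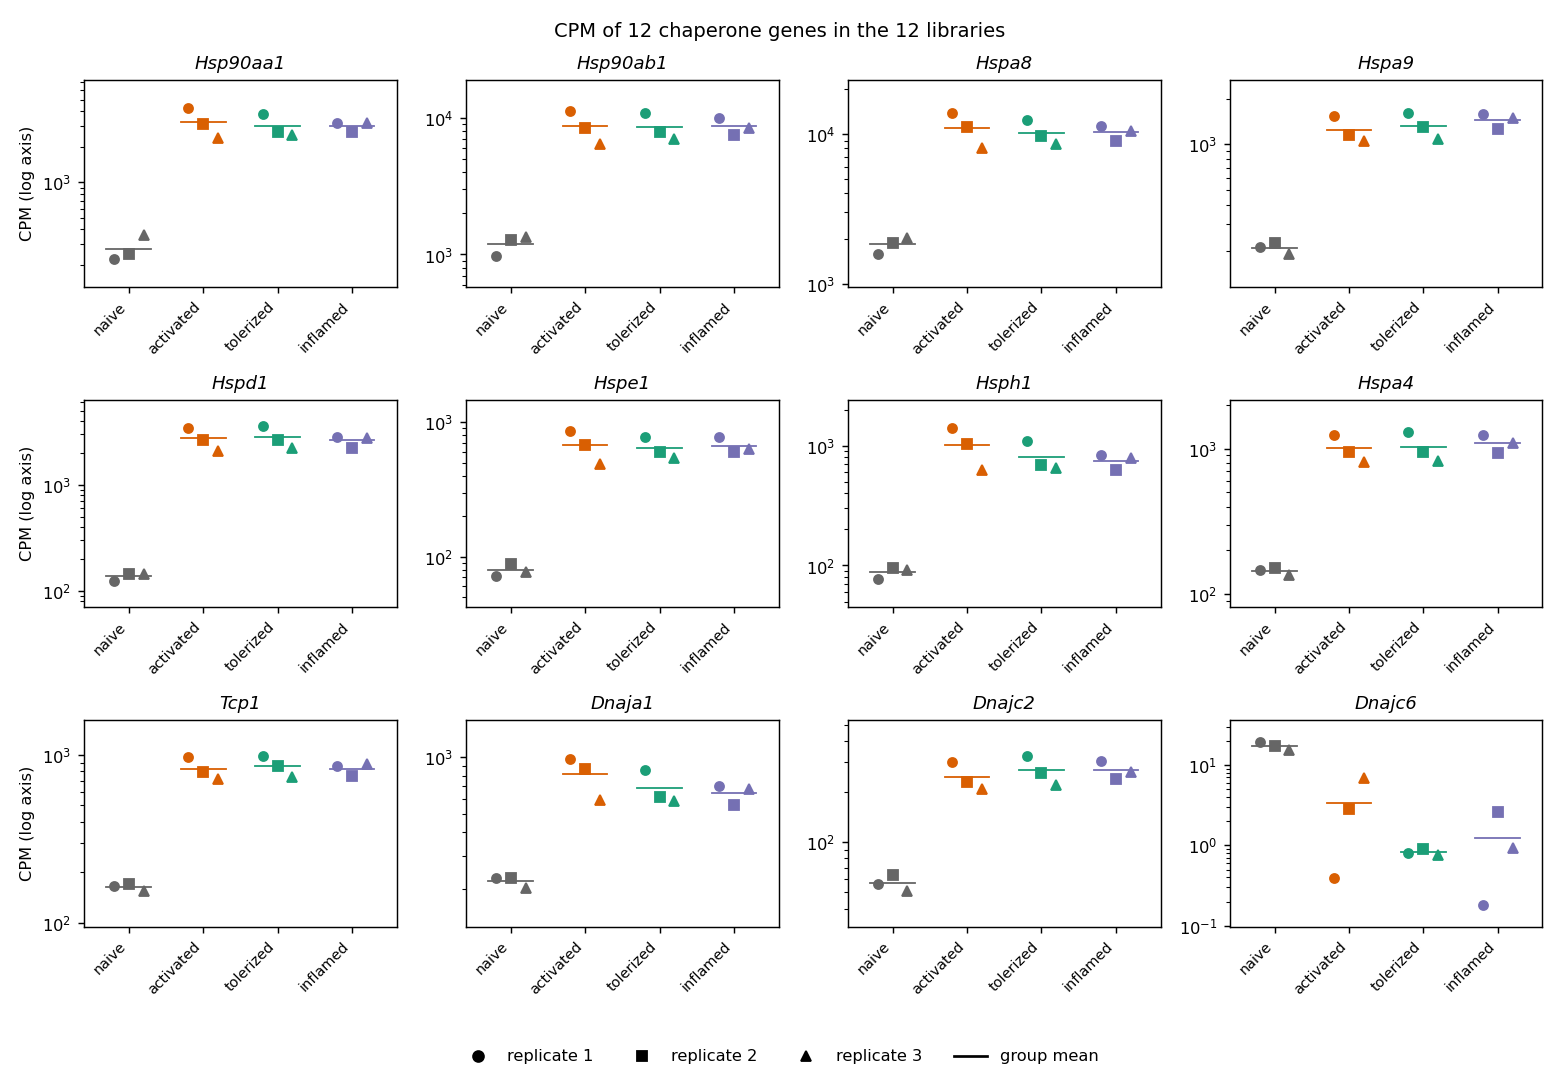
CPM (log axis, a separate scale in each panel) of 12 chaperone genes in the 12 libraries, with a marker shape for each replicate and a line at the group mean. In 11 panels every exposed library lies above every naive library; Dnajc6 shows the opposite order.

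The HSP70 family split between its constitutive and its heat-inducible members. Hspa8, the constitutive HSC70 of the cytosol, was the most abundant of all 81 genes per kilobase in every group. It stood at 1580, 1870 and 2030 CPM in naive libraries, at 13700, 11100 and 8060 in activated, 12300, 9720 and 8500 in tolerized and 11300, 8920 and 10500 in inflamed libraries. Exposed libraries were thus all higher, by 2.56 ± 0.23 in activated cells (5.90-fold, limma adjusted p = 3.36e-06). Hspa9, the mitochondrial HSP70 known as mortalin, which also pulls imported proteins through the inner membrane, went from 211, 224 and 191 CPM to 1540, 1160 and 1060 CPM in activated libraries. Its differences were 2.56 ± 0.17, 2.65 and 2.78 in the 3 exposed groups. Hspa14, an HSP70 that works at the ribosome with Dnajc2, rose by 1.61, 1.70 and 1.60, from 53.3, 56.0 and 48.3 CPM in naive libraries. Hspa1l, known from the testis, rose by 0.81 to 0.95 from 3.20, 2.40 and 2.20 CPM. The heat-inducible pair Hspa1a and Hspa1b did not rise in any exposed group and is described with the naive libraries below. Hspa13 was not analysed here.

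Hspa8, Hsp90ab1 and Hsp90aa1 together gave 39.3% to 43.5% of the summed CPM of the 81 genes in naive libraries and 53.1% to 56.8% in exposed ones. Below the first ranks the order per kilobase changed: Dnajc7 was the 4th of the naive order at 115 ± 6.45 CPM per kilobase (SD, n = 3), next to Cct2 at 127 ± 3.97 and Cct5 at 114 ± 7.51. Cct5 and Dnajc7 did not differ beyond their spread. In exposed cells Cct5 and Cct2 held the 6th and 7th places, at 573 ± 149 and 554 ± 96.2 CPM per kilobase in activated cells, again within their spread.

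The HSP110 proteins, relatives of HSP70 that release its nucleotide, rose with it. Hsph1, encoding HSP105, stood at 77.7, 95.9 and 91.3 CPM in naive libraries. It reached 1400, 1040 and 631 CPM in activated, 1090, 692 and 646 in tolerized, and 829, 629 and 787 in inflamed libraries. The activated libraries spread over more than 2-fold, and their lowest lay within the range of the other exposed groups. The rise was 3.45 ± 0.27 in activated (10.9-fold, limma adjusted p = 1.60e-06), 3.15 in tolerized and 3.06 in inflamed cells. Hspa4, the constitutive relative, went from 147, 150 and 136 CPM to 1250, 958 and 809 CPM in activated libraries, a difference of 2.77 ± 0.19. Hspa4l rose by 1.59, 1.31 and 1.37, and the nucleotide exchange factor Hspbp1 by 2.0, 1.89 and 2.05, in activated, tolerized and inflamed cells.

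Hsph1 is shown because it combines a large rise with a heat shock element, and Dnajb6 because it holds the element with a small rise. The element, in capitals, lies after the annotated starts of Hsph1, at positions 37 to 49 from one and 16 to 28 from the other, and overlaps a GENCODE exon of the gene (chr5:149636287-149636316, minus strand, GRCm38.p6). In Dnajb6 it lies before both annotated starts, at -46 to -34 of one and -127 to -115 of the other (chr5:29735843-29735872, plus strand). The Dnajb6 stretch also overlaps GENCODE exons, of Dnajb6 and of Gm5129.
Hsph1: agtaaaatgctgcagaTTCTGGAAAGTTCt
Dnajb6: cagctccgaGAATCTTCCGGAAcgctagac

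The CCT ring, which folds actin, tubulin and other large cytosolic proteins, rose in all of its common subunits. The 8 subunit genes Tcp1, Cct2, Cct3, Cct4, Cct5, Cct6a, Cct7 and Cct8 differed from naive by 2.10 (Cct2) to 2.93 (Cct6a) in activated cells. The same genes gave 2.15 to 2.89 in tolerized and 2.20 to 2.98 in inflamed cells, with Cct2 lowest and Cct6a highest in each. Cct6a stood at 94.3, 92.9 and 75.3 CPM in naive and 821, 660 and 555 CPM in activated libraries (7.62-fold, SE 0.16, limma adjusted p = 2.21e-07). Tcp1, the first subunit to be named, stood at 166, 171 and 155 CPM in naive libraries, and at 968, 795 and 722 CPM in activated libraries (4.99-fold, SE 0.13, limma adjusted p = 2.42e-07). The naive and exposed libraries did not overlap for any of these 8 genes. Per kilobase, the most abundant subunit exceeded the least abundant by 1.79 to 2.13 times in naive and by 1.52 to 2.0 times in exposed libraries, so the subunits stayed within a narrow band. Cct6b, the testis form of subunit 6, was at 0.283, 0.469 and 0.446 CPM in naive and at most 0.160 CPM in exposed libraries. It met the read filter (0.258 CPM in 3 libraries) only through the naive libraries, where it was high. Its call is counted among the falls in each comparison, but with any single naive library left out the gene was not tested.

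Of the 4 DNAJA genes, 3 rose in each exposed group, beside 35.3% to 37.4% of all tested genes. Dnaja1, a main partner of cytosolic HSP70, stood at 227, 228 and 203 CPM in naive and at 980, 863 and 596 CPM in activated libraries. Its tolerized libraries held 859, 617 and 587 CPM and its inflamed ones 701, 556 and 683 CPM. The groups were apart from naive in every library, with differences of 1.86 ± 0.19, 1.63 and 1.55. Dnaja2 rose by 1.33, 1.35 and 1.35, and Dnaja3, the J protein of mitochondrial HSP70, by 1.66, 1.71 and 1.73. Dnaja4 stood at 35.9, 37.8 and 35.7 CPM in naive and 44.1, 39.0 and 30.2 CPM in activated libraries and passed in no comparison.

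Of the 10 tested DNAJB genes, 3 rose and 3 fell in each exposed group, which is near the share of all tested genes (35.3% and 35.3% in activated cells). Dnajb5 rose by 1.30, 1.58 and 1.19, and Dnajb6, known for holding back aggregation, rose by 0.69, 0.75 and 0.82 from 77.5, 84.8 and 74.9 CPM in naive libraries. The third was Dnajb2 in activated and inflamed cells and Dnajb12 in tolerized cells; Dnajb2 in inflamed cells (0.41) did not pass without naive replicate 1 (0.42), naive replicate 3 (0.35) or inflamed replicate 1 (0.38), and Dnajb12 in tolerized cells did not without naive replicate 3 (0.33, limma adjusted p = 0.107). Dnajb1, the inducible HSP40 that partners HSP70 after heat, passed in none, at 65.9, 65.5 and 133 CPM in naive and 72.1 to 138 CPM in exposed libraries. Dnajb13, Dnajb14 and Dnajb3 fell. Dnajb14, of the endoplasmic reticulum membrane, went from 4.98, 5.74 and 5.90 CPM to between 1.80 and 3.33 CPM in exposed libraries, and Dnajb13 and Dnajb3 stayed under 4 CPM in all libraries. The calls of Dnajb3 in tolerized and inflamed cells were lost without naive replicate 3.

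The members of the DNAJC class mostly have 1 specialised task each. Of 23 tested genes, 12 rose and 2 fell in activated, 13 and 2 in tolerized and 12 and 3 in inflamed cells. Of all tested genes, in the same order, 35.3%, 37.4% and 36.9% rose and 35.3%, 35.9% and 35.5% fell. Dnajc2, which anchors Hspa14 at the ribosome exit, rose by 2.08 ± 0.17, 2.20 and 2.21, from 56.0, 63.8 and 51.1 CPM to 301, 227 and 208 CPM in activated libraries. Dnajc21, a ribosome assembly factor, rose by 1.39, 1.51 and 1.78. The mitochondrial members Dnajc15, Dnajc11 and Dnajc19 rose by 1.71, 1.70 and 1.14 in activated cells. Dnajc7, which binds both HSP70 and HSP90, stood at 256, 283 and 259 CPM in naive and 263 to 309 CPM in exposed libraries, and its differences of 0.10, 0.08 and 0.11 did not pass.

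Dnajc6 went the other way. It encodes auxilin, which uncoats clathrin vesicles with HSC70 and is known mainly from neurons. The naive libraries held 19.4, 17.1 and 15.5 CPM. The activated libraries held 0.396, 2.82 and 6.90 CPM, the tolerized 0.798, 0.915 and 0.757, and the inflamed 0.183, 2.57 and 0.919 CPM. All exposed libraries were below all naive ones, and the activated libraries were far apart from one another. The falls were -2.39 ± 0.54 in activated (limma adjusted p = 0.00244), -3.33 in tolerized (adjusted p = 0.000257) and -3.19 in inflamed cells (adjusted p = 0.000343). In activated cells the difference was -1.71 without replicate 1 and -2.99 without replicate 3, and it passed in both.

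The other falls were small or at low levels. The small heat shock proteins Hspb2 and Hspb6, which hold unfolded proteins without using ATP, fell in each exposed group. Hspb2 stood at 1.17, 1.14 and 0.866 CPM in naive and at 0 to 0.728 CPM in exposed libraries. Its exposed libraries alone did not meet the read filter (0.258 CPM in 3 libraries). Hspb2 was thus tested only because of the naive libraries, where it was high, so its calls were favoured in advance. Hspb6 stood at 3.13, 3.45 and 4.49 CPM in naive and at 0.959 to 1.71 CPM in exposed libraries. Hspb11, an intraflagellar transport protein, fell by 0.80 in activated and 0.90 in tolerized cells, from 8.48, 9.14 and 8.89 CPM. Hspbap1 (-0.50, -0.62 and -0.58) and Dnajc4 (-0.49, -0.58 and -0.53) also fell in each, but Dnajc4 did not pass in activated cells without naive replicate 1 (-0.43), naive replicate 2 (-0.45) or activated replicate 1 (-0.35). Dnajc10, a reductase of the endoplasmic reticulum, fell in inflamed cells (-0.63 ± 0.16), at 56.2 to 67.3 CPM beside 80.9 to 108 CPM in naive libraries. Its differences in activated (-0.35) and tolerized cells (-0.37) did not pass, but did without naive replicate 3, at -0.48 (limma adjusted p = 0.0299) and -0.50 (adjusted p = 0.0239).

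The sums of macrophage, B cell and erythroid markers were also lower in every exposed library than in any naive library. The sum of 12 macrophage and monocyte markers was 918, 2270 and 2320 CPM in naive, 71.6 to 843 in activated, 60.4 to 169 in tolerized and 17.5 to 439 CPM in inflamed libraries. The sum of 9 B cell markers was 871 to 1310 CPM in naive and 173 to 410 CPM in exposed libraries. Erythroid markers, 9 in number, summed to 981 to 2360 CPM in naive and 21.5 to 300 CPM in exposed libraries. Most of this sum was Hbb-b1 and Hbb-b2, which had equal values in every library, so the same reads may be counted for both. The sum of 4 NK cell markers was 82.5 to 99.9 CPM in naive and 129 to 275 CPM in exposed libraries. Nearly all of it was Nkg7, which cytotoxic T cells also express, while Ncr1 was lower after exposure (1.95 to 2.26 and 0.156 to 1.11 CPM) and Klrb1c and Klra8 were under 1 CPM throughout. The 4 CD4 T cell markers summed to 57.7 to 78.9 CPM in naive and 41.4 to 61.1 CPM in exposed libraries. Most of this sum was Foxp3 (36.6 to 48.4 and 31.8 to 49.9 CPM). Cd4 was lower in every exposed library (13.7 to 24 and 3.15 to 6.66 CPM). So was Zbtb7b (6.16 to 9.47 and 0.894 to 4.8 CPM), while Cd40lg was higher. The 6 dendritic cell markers summed to 14.4 to 32.0 CPM in naive and 1.61 to 36.7 CPM in exposed libraries. The highest value, in tolerized 3, was nearly all Itgax (35.9 CPM), and the other exposed libraries held 1.61 to 10 CPM. No listed marker in the table was at 0 in all libraries. The sum of 8 CD8 T cell markers was itself lower after exposure, at 5190 to 6390 CPM in naive and 2390 to 3840 CPM in exposed libraries. Naive 2, naive 3 and activated 1 were then left out, which are the 2 naive libraries and the exposed library with the highest macrophage sums. This leaves 1 naive library, which the fit assumes to vary like the other groups. Against naive cells fewer genes then passed in the whole table as well as among the chaperone genes, so the calls of this fit are not read here. The median difference of all tested genes was 0.02 in activated, 0.03 in tolerized and 0.04 in inflamed cells. The part of these cells in the falls was not tested.

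Of the heat shock factors, Hsf1, the main activator of the heat response, rose by 0.68 ± 0.11, 0.66 and 0.69. It stood at 78.7, 79.7 and 77.0 CPM in naive and at 110 to 142 CPM in exposed libraries, with no overlap. Hsf2 rose by 1.15, 1.14 and 1.01, from 14.3, 12.9 and 12.6 CPM. Hsf4, known from the eye lens, was at 0.479, 0.802 and 1.02 CPM in naive libraries and fell by 0.64, 0.48 and 0.63. Like Hspb2, Hsf4 was tested only because of the naive libraries, where it was high. Its calls were lost in all 3 comparisons without naive replicate 3, and in tolerized cells with most other single libraries left out.

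Naive replicate 3 stood apart in the heat-inducible genes. Hspa1b stood at 18.9, 139 and 612 CPM in the naive libraries and Hspa1a at 1.44, 18.3 and 110 CPM. In exposed libraries Hspa1b ran from 8.21 to 89.7 CPM, highest in tolerized replicate 1, and Hspa1a from 0.731 to 6.76 CPM. The naive libraries thus spanned a wider range than all exposed ones, and naive replicate 1 lay inside the exposed range. Hspa2, an HSP70 known from the testis, showed 1.04, 1.40 and 14.7 CPM in naive and 0.621 to 2.33 CPM in exposed libraries. Dnajb4, chosen after its values were seen, showed 7.22, 7.33 and 23.2 CPM in naive libraries. Dnajb1 in naive replicate 3 was at 133 CPM, about the level of tolerized replicate 1 at 138 CPM.

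Hspa1b fell in activated cells (-2.91 ± 1.15, limma adjusted p = 0.0414), and Hspa1a in activated (-2.67 ± 1.10, adjusted p = 0.0485) and inflamed cells (-2.68, adjusted p = 0.0465). None of these passed without naive replicate 3: the differences were then -1.73 (adjusted p = 0.174), -1.33 (adjusted p = 0.198) and -1.34 (adjusted p = 0.191). Without naive replicate 1 they were larger, at -4.20, -4.08 and -4.09, and several other single libraries left out also ended these calls. Across all 69 genes, 53, 52 and 53 passed in activated, tolerized and inflamed cells with naive replicate 3. Without it Cct6b was not tested, and 50, 48 and 48 of 68 genes passed, of which 48, 46 and 48 were shared. The rises of Hspd1, HSP90, Hspa8 and CCT were not among the calls lost.

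**Figure D4:**
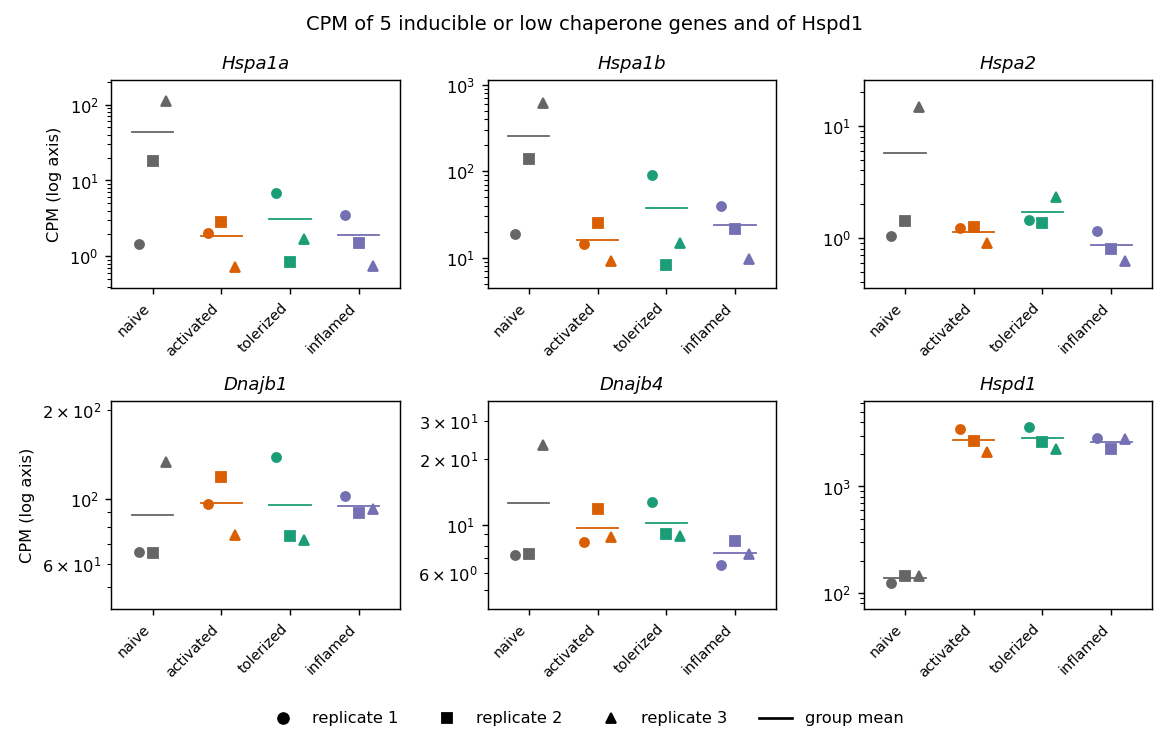
CPM (log axis, a separate scale in each panel) of 5 chaperone genes and, for comparison, Hspd1 in the 12 libraries, with a marker shape for each replicate and a line at the group mean. Naive replicate 3 (triangle) is the highest library for Hspa1a, Hspa1b, Hspa2 and Dnajb4, whereas Hspd1 is low in all naive libraries.

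Hspa1a and Hspa1b are near-identical neighbours on chromosome 17 (chr17:34969359-34972156 and chr17:34956429-34959238, RefSeq, GRCm38), so their reads could be split between them by chance and their values are uncertain one by one. Of the 50-base windows of the Hspa1b transcript, 62.3% also occur in Hspa1a. The likeness extends into the promoters, of which the first 120 of the 250 bases before each start are shown, with the bases that differ in capitals.
Hspa1a: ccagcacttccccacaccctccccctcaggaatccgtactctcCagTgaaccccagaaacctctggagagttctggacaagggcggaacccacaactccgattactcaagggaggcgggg
Hspa1b: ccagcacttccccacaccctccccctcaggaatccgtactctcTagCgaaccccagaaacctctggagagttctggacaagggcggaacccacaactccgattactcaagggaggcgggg
These are chr17:34972287-34972406 and chr17:34959369-34959488, both on the minus strand (GRCm38.p6). Counted from 1 at the 5′ end of the stretch, with the Hspa1a base first, they differ by C44T and T47C. Over the 250 bases before the start there is 1 more difference, T249G. The uninterrupted 3-unit element searched above was not found in either window, which says only that those exact letters are not there.

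The partners of HSP70, HSP90 and the chaperonins outside the naming rule moved with them. From a list of 43 cochaperones and related proteins, 42 were in the table and tested, and 34 rose and 3 fell in activated, 34 and 3 in tolerized and 33 and 4 in inflamed cells. Of all tested genes 35.3%, 37.4% and 36.9% rose and 35.3%, 35.9% and 35.5% fell. The cochaperones' median differences were 1.18, 1.23 and 1.29. Ppid, a cyclophilin bound to HSP90, stood at 43.8, 44.6 and 48.9 CPM in naive and 415, 368 and 306 CPM in activated libraries, a rise of 2.95 ± 0.16. Stip1, which joins HSP70 to HSP90, went from 108, 131 and 106 CPM to 1030, 747 and 560 CPM, a rise of 2.71 ± 0.23. Bag2, an HSP70 exchange factor, rose by 2.91 from 1.0, 0.844 and 1.63 CPM, and Pfdn4 of prefoldin, which hands actin and tubulin to CCT, by 2.50. Trap1, the mitochondrial HSP90, rose by 1.16. The falls were Tsc1, which binds HSP90, the prefoldin subunit Pfdn5 in each exposed group, Ier5, a regulator of Hsf1, in activated and tolerized cells, and the mitochondrial J protein Hscb (-0.57) and Dedd2 (-0.39) in inflamed cells.

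Between the exposed groups, the comparison of tolerized with activated cells asks what blocking CD40 ligand changes, and that of inflamed with tolerized cells what LPS adds. None of the 69 genes passed in either, nor between inflamed and activated cells, while 0% of all tested genes passed in tolerized against activated, 2.78% in inflamed against tolerized and 1.92% in inflamed against activated cells. At an unadjusted p under 0.05 there were 3, 2 and 0 genes. limma-voom and a replicate block also called 0 in each. The median differences of the 69 genes were 0.02, 0.02 and -0.01, beside 0.01, -0.01 and -0.01 for all tested genes.

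The intervals set a bound on what could have been missed. For 64, 63 and 63 of the 69 genes the 95% interval lay within a 2-fold difference in either direction, and the median interval reached 0.34 to each side. Hspd1 differed between tolerized and activated cells by 0.04 (interval -0.41 to 0.50), Hsp90aa1 by -0.10 (-0.63 to 0.42) and Hspa8 by -0.09 (-0.59 to 0.41). Differences within such intervals could be missed with 3 libraries a group, and the intervals are not adjusted for the number of genes. The widest intervals were those of Hspa1a, Hspa1b, Hspa2 and Dnajc6.

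**Figure D5:**
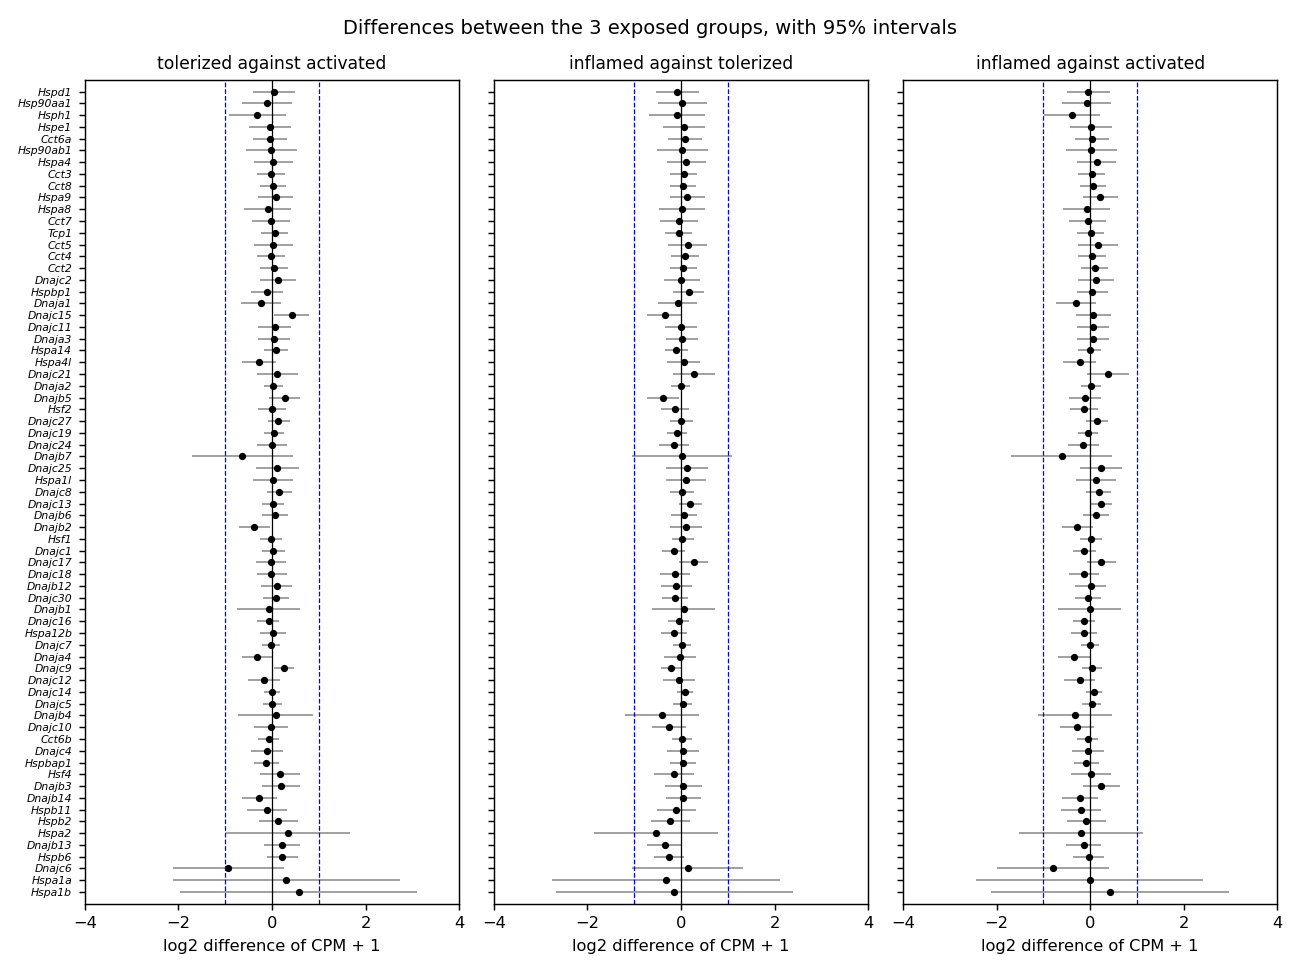
Differences between exposed groups on the log2(CPM + 1) scale (points) with 95% intervals (lines) for the 69 tested genes, ordered by their change in activated cells; dashed lines mark 2-fold. Nearly all intervals cross 0, and 64, 63 and 63 of them lie inside the dashed lines in the 3 panels.

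The smallest p-values in tolerized against activated cells belonged to Dnajc9, Dnajb2 and Dnajc15, each with an adjusted p of 1. Dnajc9, a histone chaperone, stood at 99.5, 101 and 104 CPM in activated and 110, 115 and 141 CPM in tolerized libraries, a difference of 0.26 ± 0.10 (interval 0.05 to 0.47). The libraries of these groups did not overlap. Its inflamed libraries lay at 100, 105 and 108 CPM. Dnajc15, an inhibitor of the respiratory chain, stood at 72.4, 56.8 and 50.2 CPM in activated and 76.4, 65.6 and 101 CPM in tolerized libraries, and Dnajb2 was lower in tolerized cells on average, at 34.8 beside 45.3 CPM. Both overlapped between the groups. Pairing by number was taken from the data alone and is uncertain. By same-numbered pairs, Dnajc15 was higher in the tolerized library of each of the 3 pairs. Dnajb2 (42.9, 31.2 and 30.2 beside 48.3, 50.3 and 37.2 CPM) was lower in each. With the replicate block in these groups the limma adjusted p was 0.648 for Dnajc15 and 0.618 for Dnajb2 and Dnajc9.

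Among the 42 cochaperones, Fkbp5 alone passed between exposed groups. It encodes an HSP90-bound immunophilin that is known as a target of glucocorticoid hormone. It stood at 47.9, 48.9 and 40.0 CPM in naive, 117, 125 and 131 in activated, 123, 142 and 153 in tolerized, and 223, 241 and 239 CPM in inflamed libraries. The inflamed libraries were above all others. The difference was 0.75 ± 0.10 from tolerized (1.68-fold, limma adjusted p = 0.00273) and 0.91 ± 0.10 from activated cells (1.88-fold, adjusted p = 0.00126). The sum of 6 neutrophil markers was also highest in inflamed cells, at 198, 90.8 and 10.8 CPM in replicates 1 to 3, beside 1.12 to 20.2 CPM in the other groups. Fkbp5 in the same 3 libraries was at 223, 241 and 239 CPM, and the part of neutrophils was not tested.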

How the data were processed

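The deposited table, per the file headers, holds 1 value per gene and library, a read count written with commas, beside exon length. Read as text it fits no numeric unit, so its unit was set to other and tests for counts were not used. TopHat2, bedtools and DESeq with mm10 and GRCm38 are named in the submitters' processing notes, without versions or roles. The labels' extraction text also speaks of mouse embryonic fibroblasts. Libraries held 29.3 M (mega) to 84.5 M reads. Commas were removed and library sizes scaled by the trimmed mean of M method (factors 0.897 to 1.22) before CPM were taken. Genes with at least 0.258 CPM (10 reads at the median library size) in 3 libraries and 15 reads in all were kept. limma-trend (limma 3.58.1, R 4.3.3) was fitted to log2(CPM + 1) over all 12 libraries, with Benjamini-Hochberg adjustment over all tested genes and a threshold of 0.05, and was tested on simulated data. Of the 69 tested genes, 22 have exons that overlap a protein-coding gene in GENCODE vM21.

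Members, roles, cochaperones and markers were chosen with earlier results of these data known. Named genes were the core machinery of each role, the 5 largest rises and falls per comparison among called genes of at least 5 CPM whose groups did not overlap, and the 5 smallest p-values in tolerized against activated cells; others were chosen after their values were seen. Same-numbered libraries correlated in their deviations from the group means at 0.19 to 0.60 between tolerized and activated and 0.15 to 0.64 between inflamed and activated cells. The numbers were taken as pairs there, from the data alone, and not elsewhere. Unlike-numbered libraries reached 0.21 (tolerized 3 with activated 2) and 0.56 (inflamed 2 with activated 3), so the pairing is uncertain, most of all for inflamed against activated cells. Alternatives were other scalings, limma-voom, other filters and pseudocounts, fits of 2 groups, replicate blocks, each library left out, a 2-fold minimum and, added after the data were seen, naive 2, naive 3 and activated 1 left out.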

Additional observations from a re-analysis of the deposited data

How the results depend on the processing

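The counts of chaperone genes called against naive cells (53 activated, 52 tolerized, 53 inflamed) stayed within 1.5 times under every alternative run but one, a minimum change of 2-fold in tolerized cells, which left 33. Leaving out single libraries gave 48 to 54, 47 to 52 and 48 to 54 calls. The replicate block in fits of 2 groups gave 48, 49 and 51, and between the exposed groups it gave 0, as did every other alternative run. Unscaled library sizes moved the median of all genes to -0.26, -0.25 and -0.27, and the split of the chaperone genes became 39 higher and 17 lower, 38 and 16, and 37 and 21. Single genes reversed in 3 cases: Dnajc9 in tolerized cells (-0.03) with unscaled library sizes, and Hspa1a in activated (0.08) and inflamed cells (0.15) with naive 2, naive 3 and activated 1 left out, which leaves 1 naive library; the cause was not tested. The calls of Hspa1a, Hspa1b and Hsf4 were those lost most often. Over the alternatives, 2706 values of single named genes kept direction and side of the threshold, 87 lost the call and 3 reversed. With 3 libraries a group, genes at a few CPM and differences under about 0.34 on the log2 scale were often not detectable.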

Other observations

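The chaperones of the endoplasmic reticulum that the naming rule leaves out moved in different directions. Hspa5, the HSP70 of this compartment, stood at 258, 357 and 749 CPM in naive and 1180 to 1880 CPM in exposed libraries, and rose by 1.80 ± 0.32 in activated, 1.78 in tolerized and 2.09 in inflamed cells (limma adjusted p = 0.000597, 0.000563 and 0.000187). Hsp90b1, its HSP90, rose by 1.22, 1.26 and 1.35, and Dnajb11 by 1.20, 1.27 and 1.36. Dnajc3, an inhibitor of the kinase that slows translation under stress, fell by 0.58, 0.69 and 0.58, from 219, 226 and 185 CPM in naive libraries. Dnajb9, an inducible J protein, stood at 23.8, 30.2 and 92.3 CPM in naive and 21.7 to 34.6 CPM in exposed libraries and passed in no comparison.

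Naive replicate 3, the library with the most Hspa1a and Hspa1b, was also the naive library with the most Hspa5, Dnajb9 and Ier5, the last at 105, 163 and 303 CPM in naive replicates 1 to 3. Its sum of 9 erythroid markers was 2360 CPM beside 1120 and 981 CPM in the other naive libraries. These genes were chosen after their values were seen, and what the library shares with its cells or its handling was not tested.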
